A study of Mus musculus with 17 samples.

Results

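The rows described here are the long noncoding RNA features that lie over Myh7, the mouse gene of the beta myosin heavy chain. They are every row of the deposited tables whose position overlaps a 24 kb window on chromosome 14, which gives 4 of 23940 rows: NONMMUT020952, NONMMUT020956, TCONS_00018758 and NONMMUT020955. The window and the 4 rows were chosen by their FPKM values at postnatal day 7 (P7) against day 0 (P0) in both ventricles, so the P7 and P0 values below describe them and are not tested. The libraries are RNA sequencing of total RNA from heart ventricle of male C57Bl/6 mice, with no treatment. The right ventricle (RV) and the left ventricle (LV) were each sampled at P0, when the ductus arteriosus is still open, during the transition at day 3 (P3), and at P7, by which time most cardiomyocytes are terminally differentiated per the labels. Each of the 6 groups holds 3 libraries labelled as biological replicates, except RV P7, which holds 2. The labels do not say whether animals were pooled or whether an RV and an LV library came from the same animals.

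Myosin heavy chain is the motor protein of the thick filament, and in the mouse ventricle the beta form made from Myh7 predominates before birth while the alpha form made from the neighbouring gene Myh6 predominates in the adult. The genes lie in a row on the same strand, and the change from the beta to the alpha form falls around birth and in the first weeks of life. RNA is also made from the opposite strand of this stretch, and Mhrt (myosin heavy chain associated RNA transcript) is a noncoding transcript of the mouse heart known from there.

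The tables give a position but no gene name and no strand, and the positions are taken to be those of the mm9 assembly. The locus was therefore read by distance: 6 rows around it have the span of a transcript in the GENCODE M21 annotation of GRCm38 and lie at the same distances from each other in both builds, 2 below the locus and 4 above it. The starts of the nearest such row on each side, NONMMUT020918 and NONMMUT021009, lie 1197286 bases apart in the files and in GRCm38, and the next best arrangement of rows was shared by 1 row. No position was converted, and the gene parts named below rest on these distances.

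NONMMUT020952 (chromosome 14, 55590746 to 55591524 in the files, 779 bases) lies at the distance of intron 38 of the main Myh7 transcript in GENCODE, which has 41 exons and lies on the minus strand. It covers 80.6% of that intron, and its upper end meets exon 38, which precedes the intron on the minus strand. NONMMUT020956 (55600011 to 55600850, 840 bases) lies at the distance of intron 26, covers 47.9% of it and starts at the same base as another Myh7 transcript, which retains intron sequence. TCONS_00018758 (55613573 to 55613820, 248 bases) lies upstream of Myh7, 109 bases beyond its start.

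NONMMUT020955 (55597685 to 55610438) spans 12754 bases, or 53.3% of the length of Myh7, and encloses NONMMUT020956. It ends at the same base as the transcript of Gm31251, a noncoding gene of 3 exons on the plus strand, antisense to Myh7, and starts 545 bases before it. Its low values moved in steps that correspond to a length of 1262 bases (range 1260 to 1264 over 6 libraries), 9.89% of its span, against 1248 bases of exon in the Gm31251 transcript. Multiples of that length give the same steps, so the length is the smallest that does so. The row begins 4498 bases past the end of Mhrt, and NONMMUT020952, which lies within the span of Mhrt, shares 0 bases with the exons of the Mhrt transcript. None of the 4 rows therefore lay on an exon of Mhrt as annotated in GENCODE M21, and other forms of Mhrt were not compared. The rows are called here by their IDs and by Myh7.

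The sequences below come from the Myh7 promoter and from within the Gm31251 transcript, and the FPKM results do not depend on them. The first is the Myh7 promoter from RefSeq (250 bases before the start, GRCm38.p6, chr14:54994627-54994876, minus strand), and its capitals mark the 141 bases that TCONS_00018758 overlaps by distance. The second is a stretch of the Gm31251 transcript (GRCm38 with GENCODE M21, chr14:54991052-54991240, plus strand), where capitals mark the 109 bases antisense to exon 8 of Myh7, with 40 bases on either side. NONMMUT020955 spans this stretch by distance, but its strand and exons are not given. That it holds this sequence, opposite the coding transcript, is inferred from Gm31251, and it is called the antisense row below on that ground.
Myh7 promoter: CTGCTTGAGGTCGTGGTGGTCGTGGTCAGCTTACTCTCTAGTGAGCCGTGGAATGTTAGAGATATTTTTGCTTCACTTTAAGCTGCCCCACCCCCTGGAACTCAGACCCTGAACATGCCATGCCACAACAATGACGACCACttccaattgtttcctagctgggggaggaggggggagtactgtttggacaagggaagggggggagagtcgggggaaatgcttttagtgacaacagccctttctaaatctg
Gm31251 stretch: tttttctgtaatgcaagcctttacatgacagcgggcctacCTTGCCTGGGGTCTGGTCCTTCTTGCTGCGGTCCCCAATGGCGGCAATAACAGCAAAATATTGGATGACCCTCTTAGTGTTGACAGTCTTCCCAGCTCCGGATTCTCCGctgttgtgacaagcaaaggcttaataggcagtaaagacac
The MCAT motif, a binding site of TEAD factors in muscle gene promoters, was searched as CATTCC on both strands and had 1 match in the Myh7 promoter, and 12.6% of 27025 mouse promoters of this length hold at least 1. The letters TATAAA and GATAA, searched on both strands, had 0 matches there, and 13% and 23% of all promoters hold them. These are matches of letters, not sites.

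**Figure D1:**
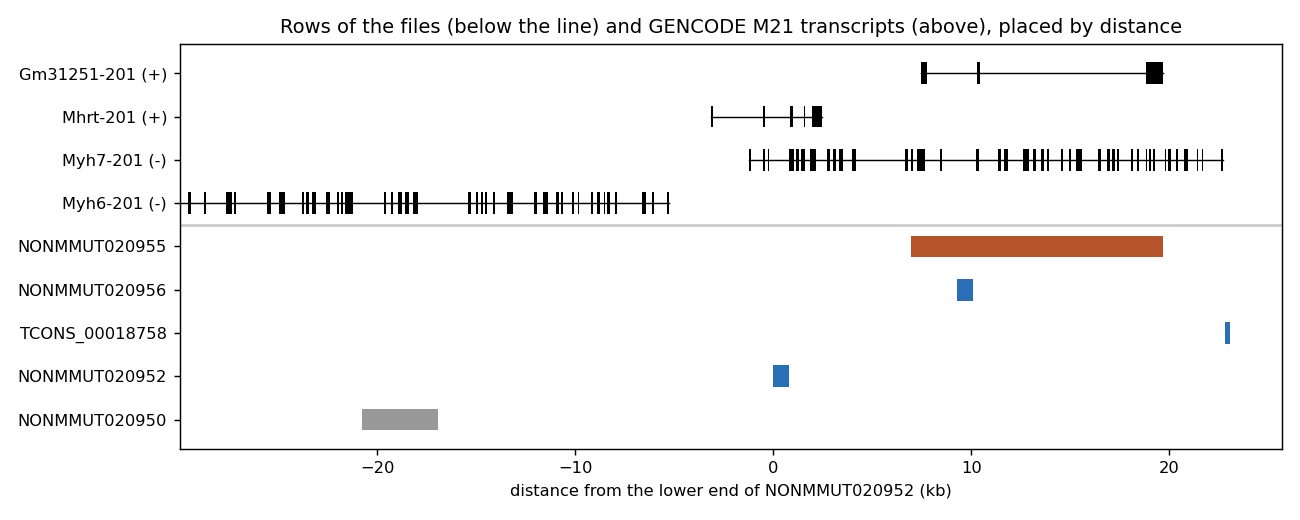
Map of the locus. The horizontal axis is the distance in kb from the lower end of NONMMUT020952; below the line are the rows of the files with the 3 rows lower at P7 in blue, the row higher at P7, NONMMUT020955, in brown and the nearest row below the locus, NONMMUT020950, in grey, and above the line are the exons (boxes) of GENCODE M21 transcripts with their strand. The rows lower at P7 lie in introns of the main Myh7 transcript or upstream of it, and NONMMUT020955 ends with the Gm31251 transcript.

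Steps in the low values of each library fit FPKM, that is fragments scaled to the length of the row and to the depth of the library, at a depth of 13.8 to 20.5 M fragments. For the 3 short rows all 45 values under 100 fragments, values of 0 included, lay within 0.05 of a multiple of 0.5 fragments. Their values can therefore be read as fragments as well, given this depth. Whole steps at 2 times the depth would give the same values, so the steps do not fix the depth. Fragment numbers below hold only for steps of 0.5. Between 34.1% and 49.2% of all rows were at 0 in a library, the most in RV P3 replicate 2, which also had the lowest depth. NONMMUT071594, a row on the mitochondrial chromosome, split the libraries into a set of 6 at 132 to 247 FPKM (P0 replicate 3 and P3 replicates 1 and 3 of both ventricles) and a set of 11 at 7.93 to 25.8 FPKM, which held every P7 library. The tables hold noncoding rows, so the labelled tissue was not checked against marker genes. In bulk tissue, fewer cells of a type and less RNA per cell cannot be told apart.

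Of the 4 rows, the intronic and upstream rows were lower at P7 than at P0 and the antisense row was higher, in both ventricles. All 4 passed the filter (at least 0.1 FPKM in at least 2 libraries), as did 11079 rows in all. TCONS_00018758 passed it mainly through its P0 libraries. Log2 differences are on the scale of FPKM + 0.1, which understates the change of low rows and of rows at 0.

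NONMMUT020952, in intron 38 of Myh7, was the most abundant of the 4 at birth. In RV libraries it had 19.0, 27.8 and 37.1 FPKM at P0, 5.30, 1.30 and 1.73 FPKM at P3, and 0 and 0.206 FPKM at P7. In LV libraries it had 33.4, 33.4 and 41.6 FPKM at P0, 6.50, 1.25 and 2.58 FPKM at P3, and 0.289, 0.155 and 0.212 FPKM at P7. The 3 ages did not overlap in either ventricle, and every P3 library lay below every P0 library. At P0 it ranked 41st of 11079 rows in RV and 30th in LV by group mean, and at P7 6490th in RV and 4337th in LV.

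The LV P7 mean of NONMMUT020952 was 0.604% of the LV P0 mean, resting on 9 fragments at P7 against 1528 at P0. In RV the 2 P7 libraries held 3 fragments together, against 1149 in the 3 P0 libraries. The fitted P7 minus P0 difference was -7.27 ± 0.57 in RV and -6.84 ± 0.51 in LV (log2, SE), the second lowest of 11079 rows in each ventricle. The median of all tested rows was -0.271 in RV and -0.318 in LV, so the row stood far below the general shift. P0 libraries of the low mitochondrial set read 19.0 to 33.4 FPKM, so its level at birth was high without the libraries of the high set.

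NONMMUT020956, in intron 26, was below NONMMUT020952 in every P0 and P3 library and was also lower at P7 than at P0. In RV it had 1.60, 4.11 and 3.38 FPKM at P0, 1.10, 0.691 and 0.786 FPKM at P3, and 0.0659 and 0.128 FPKM at P7. In LV it had 4.61, 4.33 and 4.43 FPKM at P0, 1.24, 0.377 and 0.632 FPKM at P3, and 0, 0.0358 and 0.0654 FPKM at P7. The ages did not overlap in either ventricle, but the P7 values rest on 3 fragments in RV and 1.5 in LV. The fitted P7 minus P0 difference was -3.91 ± 0.41 in RV and -5.12 ± 0.37 in LV (log2, SE).

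The P3 libraries of the intronic rows kept the same order in both rows and both ventricles, with replicate 1 highest, replicate 3 next and replicate 2 lowest. Replicates 1 and 3 are the P3 libraries of the high mitochondrial set, and the part of this difference in the order was not tested. Within a library, NONMMUT020952 stood 6.76 to 11.9 times as high as NONMMUT020956 in RV P0 libraries and 7.25 to 9.40 times in LV P0 libraries. At P3 the ratio was 1.89 to 4.82 in RV libraries and 3.33 to 5.25 in LV libraries. The P3 and P0 ranges of this ratio did not overlap in either ventricle, and the P3 values of NONMMUT020956 rest on 8 to 18 fragments per RV library and 6 to 19.5 per LV library. At P7 the ratio rests on too few fragments to be read.

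TCONS_00018758, upstream of the Myh7 start, was detected mostly at birth. In RV it had 2.71, 1.69 and 0.889 FPKM at P0 and 0.207, 0 and 0 FPKM at P3, and it was at 0 in both P7 libraries. In LV it had 1.87, 1.59 and 1.86 FPKM at P0 and 0.107, 0.106 and 0 FPKM at P3, and it was at 0 in the 3 P7 libraries. Every P3 and P7 library lay below every P0 library, while P3 and P7 shared values of 0. The P0 levels rest on 23 fragments in RV and 24 in LV, and P3 on 1 fragment in each ventricle. Against a floor of 3 fragments over the group, P7 was at least 5.36-fold lower than P0 in RV and at least 7.70-fold lower in LV, a limit on counting error only.

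NONMMUT020955, the antisense row, went the other way. In RV it had 0.0222, 0.452 and 0.153 FPKM at P0, 2.79, 1.35 and 3.52 FPKM at P3, and 3.70 and 5.77 FPKM at P7. In LV it had 0.0386, 0.208 and 0.215 FPKM at P0, 4.16, 2.84 and 3.70 FPKM at P3, and 3.39, 3.39 and 3.33 FPKM at P7. Every P3 and P7 library stood above every P0 library. P7 lay above P3 in RV, where the highest P3 library had 3.52 FPKM, while in LV the P7 values lay within the P3 range. The 3 LV P7 libraries differed little, with a mean of 3.37 ± 0.0325 FPKM (SD, n = 3), against 4.74 ± 1.46 FPKM in RV P7 (SD, n = 2).

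The P7 mean of NONMMUT020955 was 22.7 times the P0 mean in RV and 21.9 times in LV, but the P0 levels rest on 13.5 fragments in RV and 10 in LV if the length is 1262 bases. RV P0 replicate 2 held 9.5 of the RV fragments, and without it the RV ratio was 54.1. The fitted P7 minus P0 difference was 4.20 ± 0.49 in RV and 3.87 ± 0.44 in LV (log2, SE), the fourth and the sixth highest of 11079 rows. The P3 minus P0 difference was 3.27 ± 0.44 in RV and 3.93 ± 0.44 in LV, the highest of all tested rows in each ventricle. By P3 the mean had covered 51.7% of the P7 minus P0 difference in RV and 106% in LV, in FPKM. The RV share rests on 2 P7 libraries and includes RV P3 replicate 2 at 1.35 FPKM, the library of lowest depth. RV and LV were not called apart for this row at P3 or P7.

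**Figure D2:**
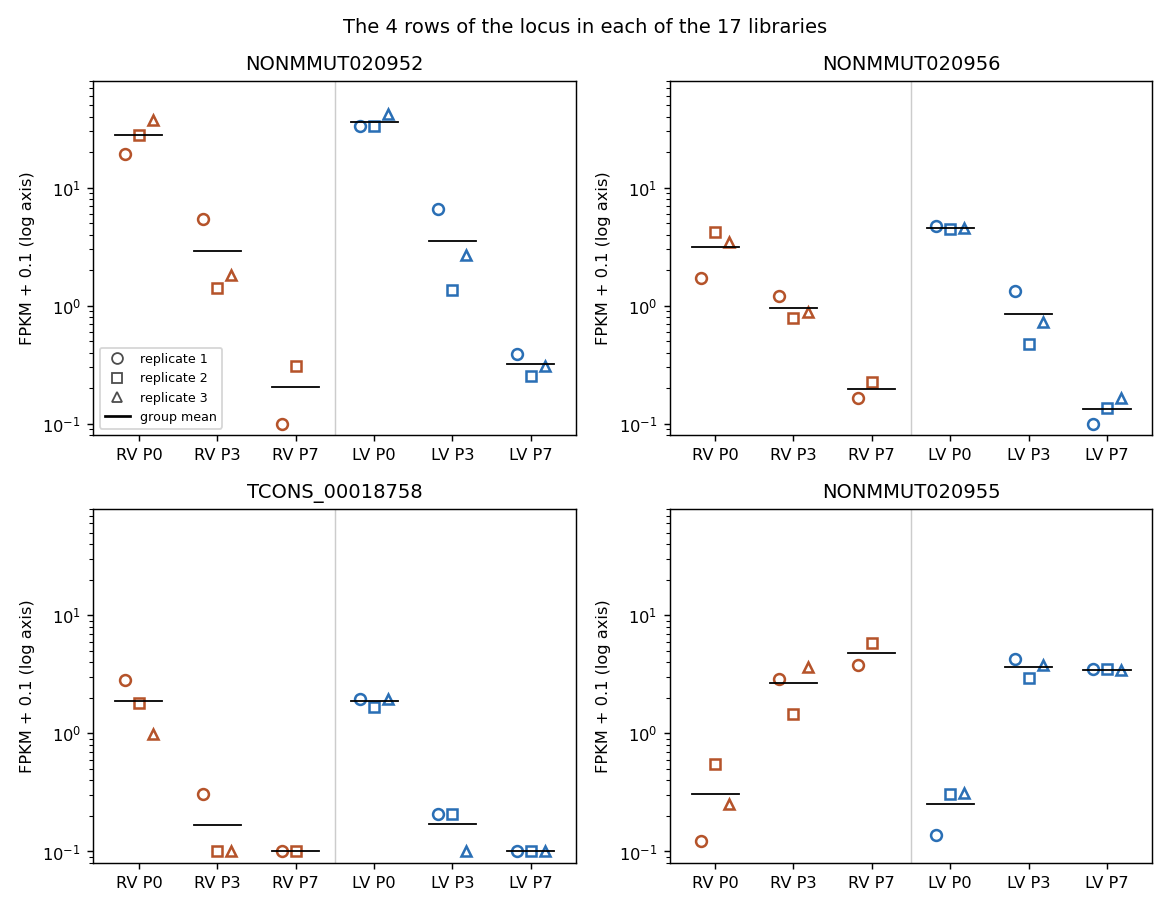
The 4 rows in every library. Each panel is a row, the vertical log axis is FPKM + 0.1, the horizontal axis gives RV (left, brown) and LV (right, blue) at P0, P3 and P7, each symbol is a library with its replicate number, and the line is the group mean. The panels of the intronic and upstream rows step down with age, and that of NONMMUT020955 steps up, with 1.35 FPKM in RV P3 replicate 2 as its lowest library after P0.

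**Figure D3:**
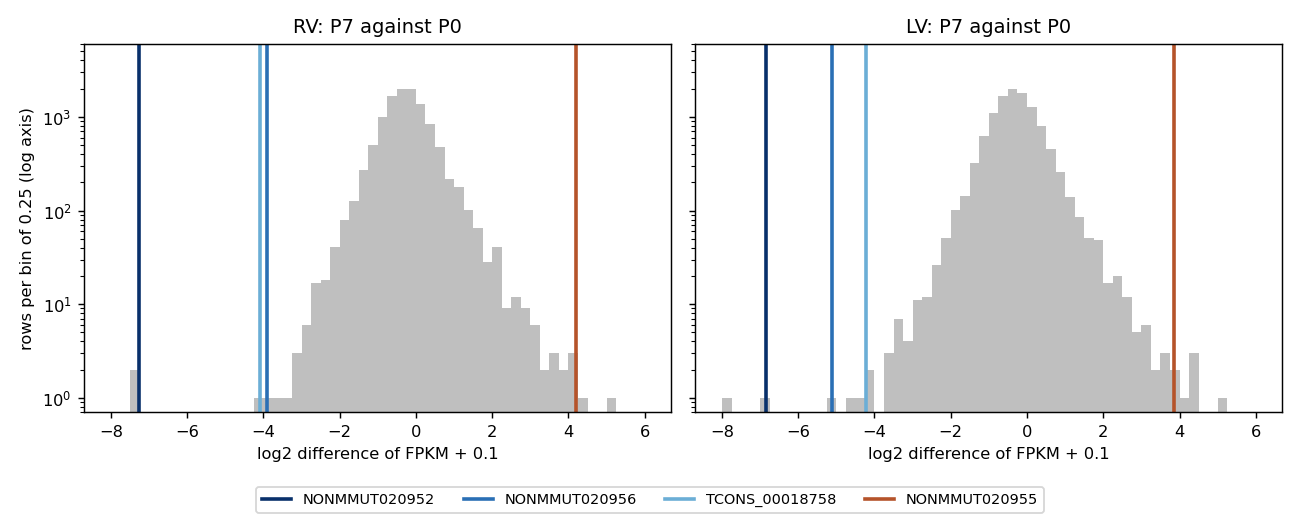
The P7 minus P0 log2 difference of all 11079 tested rows (grey bars, rows per bin of 0.25, log axis) in RV (left) and LV (right), with the 4 rows as vertical lines. The antisense row stands at 4.20 and 3.87 in the upper tail, and the other 3 stand at -3.91 or below in the lower tail.

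The overlapping rows NONMMUT020955 and NONMMUT020956 exchanged order between P0 and P3. Per length, NONMMUT020956 stood above NONMMUT020955 in all 6 P0 libraries, by 9.09 to 72.1 times in RV and 20.6 to 119 times in LV. At P3 NONMMUT020955 was the higher in all 6 libraries, by 1.96 to 4.48 times in RV and 3.36 to 7.54 times in LV. At P7 the log2 difference of FPKM + 0.1 was 4.52 and 4.69 in RV libraries and 4.37 to 5.12 in LV libraries. No library of a later age had the order of a P0 library. The libraries were strand-specific per the labels, but no source used here says whether counting used the strand. Whether reads of the Myh7 exons opposite it were counted in NONMMUT020955 was not tested. At a length of 1262 bases NONMMUT020955 held 13.5 fragments in RV P0 and 10 in LV P0. In the same libraries the intronic row NONMMUT020952 held 1149 and 1528.

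**Figure D4:**
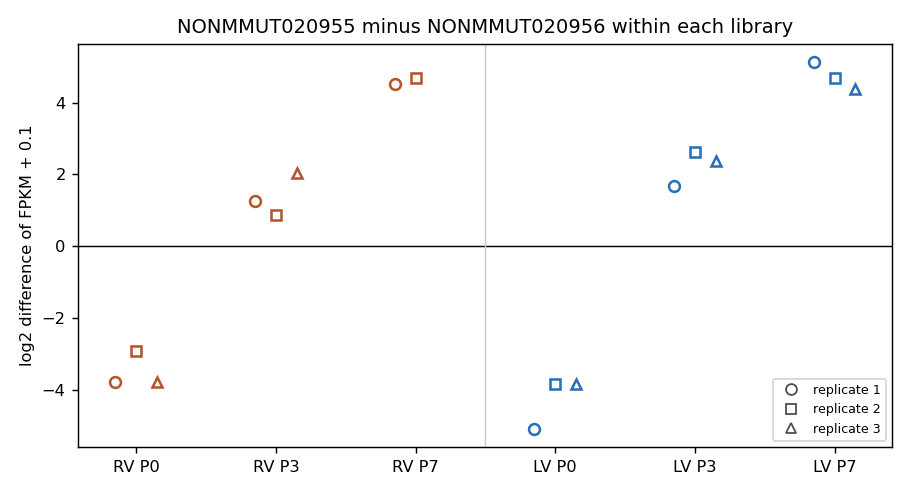
Log2 difference of FPKM + 0.1 between NONMMUT020955 and NONMMUT020956 within each library, for RV (left, brown) and LV (right, blue) at P0, P3 and P7, with a symbol per replicate number. All P0 libraries lie below 0, between -5.09 and -2.93, and all P3 and P7 libraries lie above 0, between 0.88 and 5.12.

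Whether P3 differed from the mean of P0 and P7 was tested, as a contrast whose estimate is orthogonal in the fit to the P7 minus P0 difference on which the rows were chosen. The mean was taken on the log2 scale and weighted by the number of libraries, 3 to 2 in RV and equal in LV, so the RV and LV values are not set against each other and neither is the level that a line over days would give. The fit was made with limma over all 11079 rows with two-sided Benjamini-Hochberg adjustment, and a row was called under an adjusted p of 0.05. That P3 changes of this locus were large was known when the test was chosen. In RV 1 of the 4 rows was called, where 0.713% of all rows were, and in LV 1 of the 4, where 0.226% were. The contrast uses the P0 and P7 values on which the rows were chosen. These counts therefore describe the rows and are no evidence of enrichment.

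The row past the threshold in RV was TCONS_00018758, for which the difference is a description only. It had 1 fragment at P3 and 0 at P7 in each ventricle, so both ages lay near the pseudocount and the difference mostly restates how far P0 stood above it. The log2 difference was -1.92 ± 0.40 in RV and -1.41 ± 0.39 in LV (SE), and with a pseudocount of 0.01 in place of 0.1 the RV difference was -2.92 and no longer past the threshold. It was also no longer past it without RV P0 replicate 1 or 2, RV P3 replicate 2 or 3, or RV P7 replicate 1 or 2, at -1.92 to -1.65.

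In LV, NONMMUT020955 was called, with P3 higher than the mean of P0 and P7 by 2.0 ± 0.38 (log2, SE, limma adjusted p = 0.0305), a ratio between 2.29 and 6.95 at 95% confidence. P3 minus P0 was 3.93 and P7 minus P3 was -0.06 in LV (log2). The difference therefore mostly restates how far P0 stood below both later ages and shows no peak at P3. Those P0 values, 0.0386 to 0.215 FPKM, lay near the pseudocount and were among the values the rows were chosen on. The RV difference of NONMMUT020955 was 1.59 ± 0.39 (log2, SE, limma adjusted p = 0.0724). The LV call was lost without LV P0 replicate 1 or any single LV P3 or LV P7 library, at values of 1.80 to 2.15 and adjusted p of 0.0554 to 0.226 by limma, and without RV P0 replicate 2 the RV difference was 1.92 and called (limma adjusted p = 0.0118). The LV call was also lost with a pseudocount of 0.01, with no filter, with no variance trend and with the replicate block (limma adjusted p of 0.0833 to 0.208), and with the mitochondrial set as a term, chosen after seeing the data, where the difference was 1.72 (limma adjusted p = 0.108).

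The intronic rows were not called in this test. For NONMMUT020952 the difference was -0.58 ± 0.46 in RV and -0.22 ± 0.44 in LV (log2, SE, limma adjusted p = 0.726 and 0.97), with 95% intervals of -1.54 to 0.37 and -1.15 to 0.70. For NONMMUT020956 it was -0.07 ± 0.33 in RV and 0.01 ± 0.32 in LV (log2, SE, limma adjusted p = 0.973 and 0.999). For NONMMUT020952, P3 minus P0 was -3.49 in RV and -3.64 in LV, and P7 minus P3 was -3.78 in RV and -3.20 in LV, all as log2 differences.

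The ventricles were compared at each age. At P0, RV minus LV was -0.41 (95% interval -1.48 to 0.65) for NONMMUT020952, -0.64 (-1.42 to 0.13) for NONMMUT020956, -0.13 (-1.06 to 0.81) for TCONS_00018758 and 0.11 (-0.81 to 1.04) for NONMMUT020955, all on the log2 scale. RV P0 replicate 1 was the lowest P0 library for both intronic rows and for NONMMUT020955, and the highest for TCONS_00018758. At P7 the difference of NONMMUT020955 was 0.45 (-0.59 to 1.48), with both RV libraries above all 3 LV libraries.

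At P0, P3 and P7 and over the ages, 0 of the 4 rows were called between RV and LV by limma, where 0%, 0.00903%, 0.00903% and 0.00903% of all rows were called, and 0 of the 4 had an unadjusted p under 0.05. TCONS_00018758 was at 0 in every P7 library, so it could not be called at P7. Its P7 interval comes only from the spread of other groups and rows. At P7 NONMMUT020952 rests on 3 fragments in RV and 9 in LV, and NONMMUT020956 on 3 and 1.5, so little could be told there. Over the rows and the 3 ages, the lowest bound of a 95% interval was a ratio of 0.244 (NONMMUT020952 at P7) and the highest 2.79 (NONMMUT020955 at P7). The P7 minus P0 difference of NONMMUT020956 was less negative in RV than in LV by 1.21 ± 0.56 (log2, SE), which is given with no test because the rows were chosen on these differences. With a pseudocount of 0.01 the difference for NONMMUT020956 was 2.31 and with 1 it was 0.58. It draws on both ages, with RV minus LV at -0.64 at P0 and 0.57 at P7, where LV P7 held 1.5 fragments. Leaving out single libraries gave 0.82 (without RV P0 replicate 1) to 1.47.

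**Figure D5:**
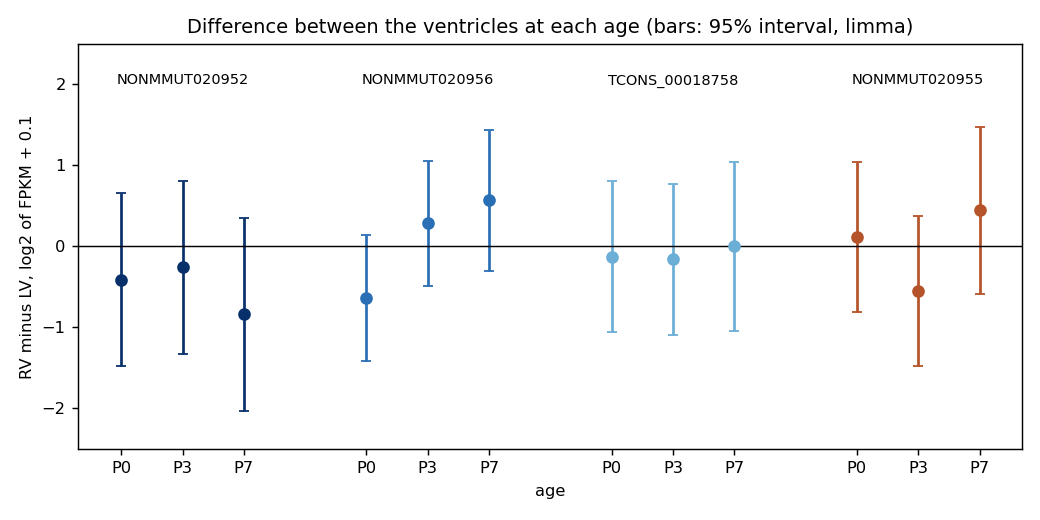
RV minus LV difference (vertical axis, log2 of FPKM + 0.1) of the 4 rows at P0, P3 and P7, with points for the limma estimate and bars for the 95% interval. Every interval includes 0, and the estimates lie between -0.84 and 0.57. TCONS_00018758 was at 0 in every P7 library, so its P7 estimate was fixed at 0.

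Rows outside the window were examined next. The nearest row below, NONMMUT020950, lies over exons 21 to 25 of Myh6 by distance. It read 0 to 0.0968 FPKM and was at 0 in 11 of the 17 libraries, so it did not pass the filter. The nearest row above, NONMMUT020960, at the distance of Ngdn, averaged 0.0335 ± 0.0473 FPKM in RV P7 (SD, n = 2) and 0.211 ± 0.127 FPKM in RV P0 (SD, n = 3). It was not called in RV (log2 difference -1.19 ± 0.45 SE, limma adjusted p = 0.139) or in LV (-0.69 ± 0.40 SE, limma adjusted p = 0.28).

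Of 10 other rows within 100 kb of the window, 7 passed the filter, and between P7 and P0 limma called 1 of the 7 in RV, where 5.55% of all rows were called, and 1 of the 7 in LV, where 11.2% were. Both calls were NONMMUT020972 (55679103 to 55680052), which lies by distance over exon 10 of Zfhx2, a zinc finger homeobox gene on the minus strand, and within the span of the antisense gene Zfhx2os. It averaged 0.312 ± 0.277 FPKM in RV P7 (SD, n = 2) and 0.955 ± 0.171 FPKM in RV P0 (SD, n = 3), and fell by 1.53 ± 0.37 (log2, SE, limma adjusted p = 0.0193). In LV it averaged 0.262 ± 0.0774 FPKM at P7 and 1.20 ± 0.181 FPKM at P0 (SD, n = 3 each), and fell by 1.86 ± 0.33 (log2, SE, limma adjusted p = 0.00122). The RV count was 0 without RV P0 replicate 1, RV P0 replicate 3 or RV P7 replicate 1, and also with no filter, with only the compared groups, with the replicate block and in the low mitochondrial set alone. The median difference of the 7 rows was -0.487 in RV and -0.401 in LV, beside -0.271 and -0.318 over all tested rows.

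Rows elsewhere in the genome with the most similar course were looked up by Pearson's r of log2(FPKM + 0.1) over the 17 libraries, among 5535 rows above the median level. The libraries share 3 ages, which set much of r, and no test is given. NONMMUT020952 was most like TCONS_00055858 on chromosome 7 (r = 0.965), NONMMUT008609 on chromosome 11 (r = 0.962) and NONMMUT001107 on chromosome 1 (r = 0.959). TCONS_00055858 averaged 6.75, 2.65 and 0.877 FPKM at P0, P3 and P7 in RV, and 9.24, 2.84 and 0.824 FPKM in LV. NONMMUT020955 was most like TCONS_00031088 on chromosome 19 (r = 0.98), NONMMUT030949, which has no position in the files (r = 0.977), and NONMMUT070487 on chromosome 9 (r = 0.965). NONMMUT070487 averaged 0.726, 6.56 and 7.71 FPKM at P0, P3 and P7 in RV, and 0.531, 6.68 and 6.90 FPKM in LV, so it too had most of its later level at P3.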

How the data were processed

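For each of the 17 libraries the authors deposited a table of row IDs, positions and values. The unit is not named: the deposited values were read as FPKM because low values fell on steps of 0.5 fragments, which held within 0.01 of a step for 57.6% to 60.9% of low rows per library, and TPM would also show steps. STAR 2.4.0j and mm10 are named in the submitters' processing notes. No source used here gives the counting tool, the annotation or the strand setting. The positions run past the last GRCm38 gene on 9 nuclear chromosomes and include 8 names ending in _random, so they were taken to be mm9. Of the IDs, 0 matched the gene table.

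The 11079 rows that reached 0.1 FPKM in 2 or more libraries were analysed with limma 3.58.1 (R 4.3.3). The model had 6 group means on the scale log2(FPKM + 0.1), used every library together, and moderated variances robustly along a trend. Adjustment was by Benjamini-Hochberg over all 11079 rows. Depth limits rows under 1 FPKM to few fragments, and the floor of 3 fragments covers counting error only, since PCR copies are not independent molecules. Alternatives were 2 other pseudocounts, no filter, median scaling, only the compared groups, no variance trend, a replicate block and leaving out each library. Figures used matplotlib 3.10.9.

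The 4 rows, the lists and the tests were chosen with earlier results of these data known. Named besides the 4 rows were the nearest row on each side, called rows within 100 kb and the 3 rows most like NONMMUT020952 and NONMMUT020955. The rows used as anchors for distances and the mitochondrial row were named besides.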

Additional observations from a re-analysis of the deposited data

How the results depend on the processing

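No called difference changed sign under any alternative, while differences that were not called changed sign under some. Of 28 fitted differences of the 4 rows, 25 kept their side of the threshold under every alternative that gave a value. The 28 include the differences between RV and LV in the P7 minus P0 change, which are not tested here. They also include TCONS_00018758 between RV and LV at P7, where every value was 0 and the outcome was fixed. The P3 difference of NONMMUT020955 in LV, 2.0, was not called with a pseudocount of 0.01 (2.4), with no filter (2.0), with no variance trend (2.0), with the replicate block (2.0), with the library set as a term (1.72) or in the low library set alone (1.80, where RV P3 and LV P3 hold 1 library each, assumed to vary like the other groups). Leaving out single libraries gave 1.80 to 2.15 in LV and 1.26 to 1.97 in RV, where it was called without RV P0 replicate 2 (1.92). The P3 difference of TCONS_00018758 in RV, -1.92, was not past the threshold with a pseudocount of 0.01 (-2.92), with no filter (-1.92), with only the compared groups (-1.92) or with the library set as a term (-1.83), and single libraries moved it between -2.46 and -1.65. The count of neighbouring rows called in RV, 1, was 0 with no filter, with only the compared groups, with the replicate block and in the low library set alone, and 0 to 1 without single libraries. Where no cause is named, the cause was not tested.

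Both library set alternatives were chosen after seeing the data. Median scaling turned the calls between P7 and P0 over all rows from 203 higher and 412 lower to 332 and 224 in RV, and from 288 and 957 to 509 and 399 in LV. Same-numbered libraries of the 2 ventricles correlated at 0.0451 to 0.172 in their deviations from the group means, above 0.1 in 3 of 8 pairs, so the numbers were not taken to pair the libraries. All 8 were above 0 and every library with a same-numbered partner correlated best with it, which is a hint from the data and not from the design, and the high mitochondrial set held the same numbers in both ventricles. The replicate block changed no other call. Only the compared groups was not run for the difference over the ages, which uses all libraries. It gave no value for NONMMUT020956 and TCONS_00018758 between RV and LV at P7, since neither row passed the filter in those libraries. Depth limits the P7 levels of the 3 rows lower at P7 and the P0 level of NONMMUT020955, which rest on 13.5 fragments or fewer per group.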
